A study of Mus musculus with 35 samples.

Results

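The interscapular brown adipose tissue (iBAT) of 20 cold-exposed mice was examined for what set apart mice that had spent the same time in the cold. All were C57BL/6J males of 9 to 10 weeks, kept at 6 °C for 2, 3, 4 or 5 days, with 5 mice at each duration and 1 library per mouse. These are 20 of the 35 libraries of the time course. The other 15 came from 5 mice at room temperature (24 °C), 5 after 6 hours and 5 after 1 day at 6 °C, and are used here only where named. No group carried a transgene or a drug. Cold-exposed mice were housed singly without nesting material, which all 20 shared, and each library came from bulk RNA of an iBAT pad, so every value is a mixture of cell types. Of the 55421 genes in the table, 11550 had at least 10 counts in at least 5 of the 20 libraries. Their counts were turned into log2 CPM (counts scaled to a common library total), and the mean of the 5 mice of each duration was subtracted gene by gene. What is left, called the residual here, holds no difference between durations, only differences between mice of the same duration. Libraries were taken by duration and genes by abundance, with no filter on differences between the mice. The choice was made with earlier results of these data known.

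Brown adipocytes burn fatty acids and glucose in their mitochondria, where the uncoupling protein UCP1 lets protons pass back without making ATP, and the energy leaves as heat. During cold exposure the tissue is also rebuilt: progenitors and other stromal cells divide, new adipocytes form, de novo lipogenesis is switched on, and macrophages that take up lipid gather. Genes used by 1 cell type or regulated by 1 signal tend to vary together between animals, so the covariation of transcripts within a duration describes which of these features differed from mouse to mouse and which differed together.

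The 20 libraries held between 3913519 and 6031117 counts (median 5067816), so that 1 count was worth 0.166 to 0.256 CPM. Transcripts of the mitochondrial genome took 33.6% to 44.6% of the counts and the RNA Gm42418 9.44% to 16.3%. No pair of libraries of the same duration agreed within sampling noise, with a chi-square per degree of freedom of 4.83 to 25.2. Markers of mature brown adipocytes summed to between 16060 and 24790 CPM, and Ucp1 was at 4066 CPM or more in every mouse. Epithelial markers summed to at most 4.93 CPM and neutrophil markers to at most 5.81 CPM, while skeletal muscle markers ranged from 30.3 to 1646 CPM.

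For 9754 of the 11550 genes (84.5%) the residuals varied more than counting error allows (chi-square test over the 20 libraries, Benjamini-Hochberg adjusted p below 0.05). Most of this variation was small. After removal of the counting variance, the SD between mice of the same duration had a median of 0.19 on the log2 scale among the 6190 genes that averaged 50 counts or more, and its quartiles were 0.138 and 0.253. Only 43 of these genes exceeded an SD of 1, and 584 stayed below 0.1. The widest spread belonged to Gpnmb, a membrane glycoprotein of lipid-laden macrophages, with an SD of 2.04. Other genes of phagocytes and of tissue stress stood close to it: the stress-induced cytokine Gdf15 (SD 1.94), the plasma inhibitor chain Itih4 (1.75), the lectin Lgals3 (1.75) and the interferon-stimulated gene Ifit3 (1.52). The remaining 10 of the 15 most variable genes encode parts of the contractile apparatus of skeletal muscle or serve it, among them Tnnt3 (1.99), Ttn (1.99), Myh4 (1.96), Acta1 (1.81) and the creatine kinase Ckm (1.51). At the other end were genes used by nearly all cells, such as the elongation factor Eef2 (0.056) and the ribosomal protein gene Rps29 (0.062). The fatty acid translocase Cd36 belonged to the same end, with an SD of 0.064 at a mean of 744 CPM. In bulk RNA a higher level of a cell type's genes can come from more of those cells or from more RNA per cell, and the 2 cannot be told apart here.

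**Figure D1:**
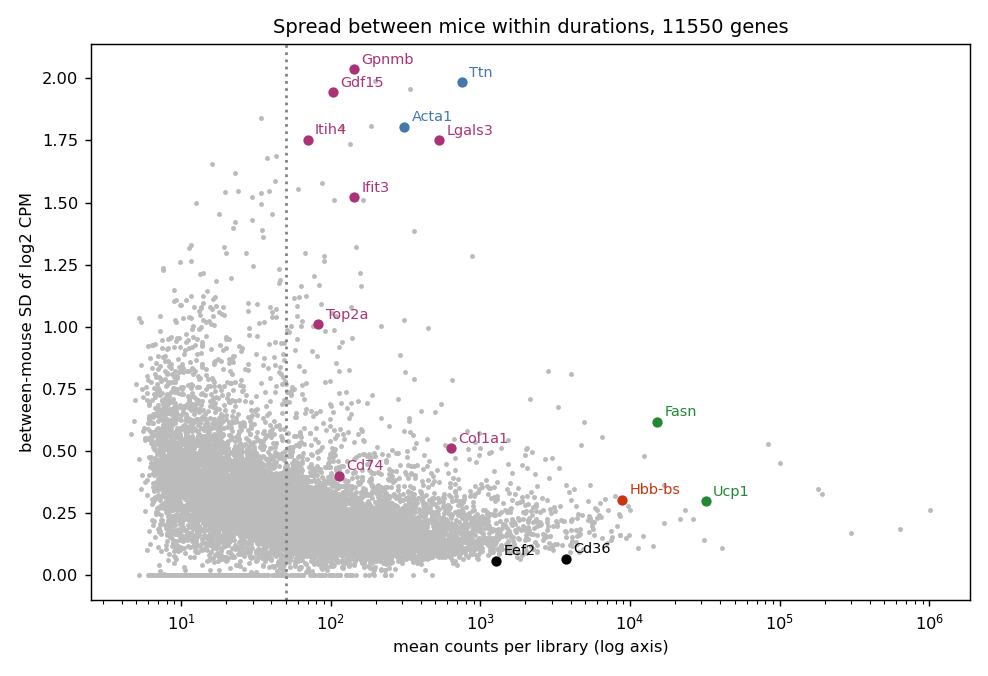
Between-mouse SD of log2 CPM within durations (vertical axis, counting variance removed) against the mean count per library (horizontal axis, log scale), 1 point per gene, with a dotted line at a mean of 50 counts. The median SD right of the line is 0.19, and Gpnmb at 2.04, Ttn at 1.99 and Lgals3 at 1.75 stand far above the cloud.

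Principal components of the residuals summarize which genes moved together, as a description with no test. The first component held 22.9% of the variance, followed by 9.17%, 7.48% and 7.05%. Its positive end was led by Gpnmb, Gdf15, Itih4, Lgals3, Ifit3, the lysosomal protease Ctss, S100a4 and Basp1, and its negative end held the lipogenic genes Acly and Thrsp, the mitochondrial mt-Cytb, the transcription factor Zbtb16 and the neurotrophin receptor gene Ntrk3. Each duration had mice at both ends of it, and the mouse numbered 1 had a positive score at all 4 durations. At 2 days the scores were 35.2, 19.4, −16.6, −26.7 and −11.3, and at 5 days they were 17.5, −7.18, −21.4, −6.48 and 17.5. The second component was led by the muscle genes Tnnt3, Myh4, Ttn, Acta1, Tnni2, Atp2a1, Tnnc2 and Mylpf. Its lowest scores belonged to 3 days replicate 5 (−28.1) and 2 days replicate 3 (−19.5). The third component again had muscle genes at its positive end, with Nnat, Igfbp7, Lgals3 and Ighm at the negative end. The share of counts from the mitochondrial genome had a correlation of −0.828 with the scores of the first component (20 mice, described only, since these counts are part of the data).

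To ask which genes went with which feature of the tissue, 9 genes of known use were taken as anchors. In each fit, edgeR's quasi-likelihood test estimated the slope of every other gene on the anchor's residual, in log2 units per log2 unit of the anchor, with duration in the model, and p-values were adjusted over all 11549 genes. A positive slope means that the gene was higher in the mice with more of the anchor than their peers of the same duration. Lgals3 marks the lipid-handling macrophages (MAC1), Top2a dividing cells, Col1a1 collagen-making stroma, Cd74 antigen-presenting cells, Fasn de novo lipogenesis, Ucp1 uncoupled respiration, Dbp the output of the circadian clock, Acta1 skeletal muscle and Hbb-bs red blood cells. Since most cell types of a tissue share the library, a gene can be higher relative to the total while its own amount is constant, and the scaling of the libraries therefore bears on the sign of small slopes. TMM scaling put the median slope of all genes at −0.00172 for Lgals3 and −0.00808 for Ucp1. Scaling by library size alone shifted it to 0.0576 for Lgals3, 0.0963 for Top2a, 0.167 for Col1a1, −0.142 for Fasn and −0.304 for Ucp1.

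Lgals3 encodes galectin-3, a sugar-binding protein that macrophages secrete and also use at damaged lysosomes. It lies on chromosome 14 from 47367751 to 47386160 (GRCm38). After 2 days of cold it stood at 262, 149, 14.6, 8.16 and 27.1 CPM in the 5 mice. The 3-day mice had 228, 20, 227, 137 and 69 CPM and the 4-day mice 148, 150, 121, 11.3 and 17.1 CPM. After 5 days the values were 122, 42.4, 12.0, 55.8 and 196 CPM. At each duration the highest mouse thus stood at 149.9 CPM or more and the lowest at 20.01 CPM or less. The residuals ran from −2.31 to 2.63 with no wide break, the largest gap between neighbours being 0.88. Gpnmb (chromosome 6 from 49036546 to 49070929) followed the same mice, with 82.9, 30.8, 1.05, 2.55 and 2.54 CPM at 2 days, 82.5, 5.26, 81.3, 34.9 and 12.1 CPM at 3 days, 42.0, 46.7, 35.5, 1.98 and 1.78 CPM at 4 days, and 27.2, 6.27, 2.11, 7.11 and 30.4 CPM at 5 days. Its slope on Lgals3 was 1.25 (SE 0.054, edgeR adjusted p = 1.44e-15), so it spread over an even wider range than Lgals3 itself.

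**Figure D2:**
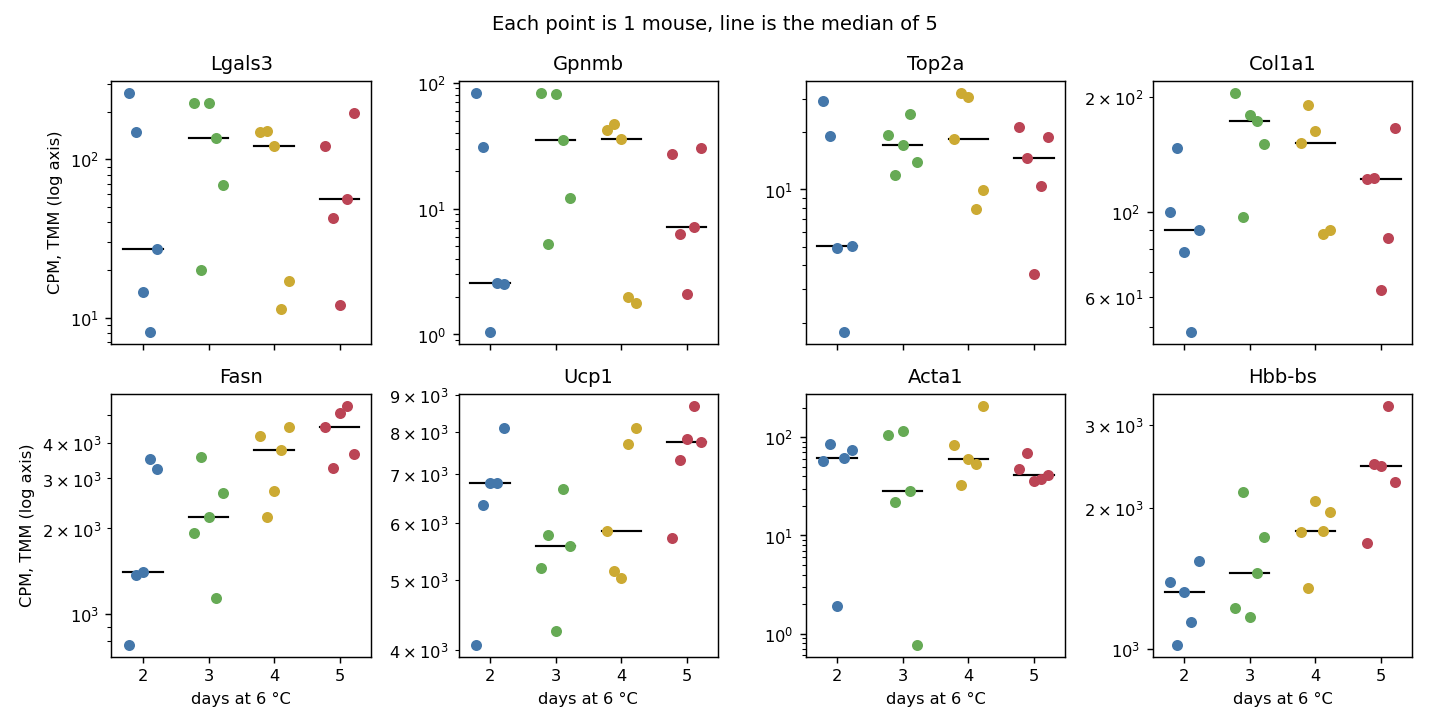
CPM after TMM scaling (vertical axes, log scale) of 8 genes against days at 6 °C, 1 point per mouse, with a line at the median of the 5 mice. Lgals3 runs from 8.16 to 262 CPM and Gpnmb from 1.05 to 82.9 CPM, with high and low mice at each duration, whereas Ucp1 stays between 4066 and 8696 CPM.

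With higher Lgals3, 836 genes were higher (7.24% of those tested) and 672 were lower (5.82%), and 1339 of these 1508 kept the same sign when each duration was fitted alone. Those fits reuse the mice that gave the pooled slope, and the genes were picked by it, so agreement in sign is partly built in. It is no replication, here or for the other anchors, and the share over all genes was not computed. Without 2 days replicate 1, the mouse with the most Lgals3, the number of lower genes was 383. Scaling by library size alone gave 2666 higher and 97 lower genes, so the balance between the directions depends on the scaling. By the rule for named genes, the strongest positive slopes after Gpnmb belonged to the chemokine Ccl6 (0.56, SE 0.0347, edgeR adjusted p = 7.19e-12), Itih4 (1.16), the hyaluronan receptor Cd44 (0.67) and the lysosomal protease Ctss (0.75). Ccl6 ran from 8.42 to 82.6 CPM over the 20 mice and Ctss from 9.90 to 185 CPM. Ccl6 shares its place with E230016K23Rik on the opposite strand. The strongest negative slopes were shallow. They belonged to C1qtnf12 (−0.17), the mitochondrial carrier Slc25a35 (−0.16), the apolipoprotein Apoc1 (−0.20), the respiratory subunit mt-Cytb (−0.24) and the sideroflexin gene Sfxn5 (−0.18).

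Among the macrophage lists, the lipid-handling genes (MAC1) were split by gene. Of the 13 tested beside Lgals3, 9 were higher with it (7.24% of all genes were) and the median slope was 0.66. Trem2, the lipid receptor of such macrophages, had a slope of 1.05 (SE 0.118, edgeR adjusted p = 3.55e-07), over 0 to 6.55 CPM. In contrast, the abundant lysosomal proteases Ctsb (slope 0.03, adjusted p = 0.541) and Ctsd (−0.00, adjusted p = 0.957), which other cells of the tissue also express, did not pass the test. Of the 8 markers of resident macrophages (MAC2), 0 passed in edgeR, with a median slope of 0.0774. The mannose receptor Mrc1 had a slope of 0.06 (adjusted p = 0.374) and Lyve1 one of 0.25 (adjusted p = 0.0533). Scaling by library size alone called 5 of these 8 higher. The resident markers summed to 75.8 to 180 CPM, against 32.7 to 664 CPM for the 11 markers of interferon-activated macrophages (MAC3). Of these 11, 8 had enough counts to be tested, and all 8 were higher with Lgals3 (median slope 0.61). Rsad2, Isg15 and Ifit3 are on this list and also among the interferon-stimulated genes described below, so the 2 lists are not independent. Among the monocyte and pan-leukocyte genes 10 of 12 were higher, including the chemokine receptor Ccr2 (0.48), the leukocyte phosphatase Ptprc (0.42) and the monocyte antigen Ly6c2 (1.08). Of the chemokines that draw monocytes, 6 of 9 were higher. Ccl2, the ligand of Ccr2, had a slope of 1.00 (SE 0.0701, edgeR adjusted p = 8.56e-11) over 0 to 31.0 CPM. Some genes of acute cell stress were higher too: 4 of 10 immediate early genes, including Fos (0.67), and 6 of 16 genes of the heat shock and unfolded protein responses. The median residual of the heat shock list was 0.693 in 2 days replicate 1, the mouse with the most Lgals3, and at most 0.302 in any other mouse. That of the immediate early list was also highest there, at 0.821, followed by 0.683 in 3 days replicate 3. Genes of the cytosolic ribosome did not pass, at 0 of 18 in edgeR, but 12 of them were called higher with library size alone.

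Interferon-stimulated genes are switched on when interferon receptors activate STAT factors, which bind a short element with repeated GAAA letters. All 13 tested were higher with Lgals3, with a median slope of 0.57 against −0.00172 over all genes, and all 13 were also called with library size alone. They were the most tightly coupled list, with a median correlation of 0.888 between pairs of its genes over the 20 mice, and their summed level ran from 74.3 to 634 CPM. Rsad2, an antiviral enzyme, stood at 49.3, 43.4, 55, 17.3 and 24.5 CPM at 2 days. It reached 415, 91.4, 386, 448 and 58.2 CPM at 3 days, 386, 314, 177, 52.9 and 49.5 CPM at 4 days, and 274, 59.9, 30, 92.9 and 359 CPM at 5 days. From 3 days on, the mice with high Rsad2 were those with high Lgals3. At 2 days the mouse with 262 CPM of Lgals3 had 49.3 CPM of Rsad2, and the highest Rsad2 value belonged to a mouse with 14.6 CPM of Lgals3. Isg15, a ubiquitin-like modifier, gave the same picture, from 1.02 to 3.86 CPM at 2 days and from 4.62 to 36.2 CPM at 3 days. Whether these slopes differ between durations was not tested. Over all durations the slope was 0.60 for Rsad2 (SE 0.0947, edgeR adjusted p = 4.91e-05), 0.66 for Isg15 and 0.77 for Ifit3.

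Windows of 30 bases before the start sites of 4 of these genes are shown because they hold the element that names the group. The letters GAAA followed, after any 2 bases, by another GAAA were sought on both strands in the 250 bases before the start of each gene (RefSeq, GRCm38.p6). Matches and their reverse complements are in capitals, and the sequences run 5′ to 3′ on the strand of the gene.
Isg15, chr4:156200871-156200900, strand minus: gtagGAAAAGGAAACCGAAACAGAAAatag
Ifit3, chr19:34583363-34583392, strand plus: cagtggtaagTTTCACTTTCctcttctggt
Rsad2, chr12:26456553-26456582, strand minus: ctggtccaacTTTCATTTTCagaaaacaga
Ifit1, chr19:34640784-34640813, strand plus: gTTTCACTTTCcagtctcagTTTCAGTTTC
The Isg15 window holds 3 overlapping matches and the Ifit1 window 2. Of the 8758 tested genes with a promoter in the table, 285 (3.25%) held a match. It was present in 5 of the 8 interferon-stimulated genes with a promoter (62.5%), in 4 of 7 MAC3 genes (57.1%) and in 23 of 142 genes of the largest group of covarying genes described further on (16.2%). A match in this window is a description and not evidence of binding.

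Proliferation followed the same mice. Top2a, the topoisomerase of dividing cells (chromosome 11 from 98992943 to 99024189), stood at 29.1, 19.1, 4.91, 1.79 and 5.08 CPM at 2 days and at 19.2, 11.9, 17.1, 24.8 and 13.9 CPM at 3 days. It stood at 18.4, 32.1, 30.5, 7.92 and 9.97 CPM at 4 days and at 21.3, 14.7, 3.59, 10.4 and 18.9 CPM at 5 days. Its values at 3 days were the closest together, and at 2 days the mice with 29.1 and 1.79 CPM were the farthest apart. Of 21 other proliferation genes, 17 were higher with Top2a (5.91% of all genes were) with a median slope of 0.73. With Lgals3, 17 of 22 were higher (median slope 0.38), among them the proliferation antigen Mki67 (0.44) and the survivin gene Birc5 (0.61). In the fit on Top2a, 682 genes were higher and 559 lower (4.84%), and 1009 kept the same sign in each duration. Without 2 days replicate 1 the counts were 428 and 188, and without 2 days replicate 4 the lower count was 366. Library size alone gave 2557 higher and 103 lower genes. The genes that led the fit on Top2a were not those of the cell cycle but Ccl6 (slope 0.94, SE 0.0806, edgeR adjusted p = 6.43e-08), Lgals3 (1.57), the collagens Col1a2 (0.47) and Col6a3 (0.49) and the actin-binding Tagln2 (0.43). The genes lower with Top2a were led by the glycerol phosphate dehydrogenase Gpd2 (−0.23), the lipogenic Thrsp (−0.46), Slc25a35 (−0.26), Eif4e3 (−0.22) and Nat8l (−0.28), which makes N-acetylaspartate in brown fat.

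The promoter of Top2a is known for repeated CCAAT boxes, bound by the factor NF-Y, and a window with 2 of its 6 matches is shown, with CCAAT or its reverse complement in capitals.
Top2a, chr11:99024263-99024292, strand minus: ctacgATTGGttactgcaaacagagCCAAT
CCAAT is a short motif and was present before 3524 of 8758 tested genes (40.2%) and before 16 of 19 proliferation genes (84.2%). The interferon element was present before 0 of those 19.

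Collagen genes went with both. Col1a1, a chain of type I collagen (chromosome 11 from 94936224 to 94953042), stood at 100, 147, 78.9, 48.7 and 89.7 CPM at 2 days, 205, 97.2, 180, 173 and 151 CPM at 3 days, 152, 191, 163, 87.5 and 89.7 CPM at 4 days, and 122, 123, 62.5, 85.8 and 166 CPM at 5 days. Its residuals spanned a narrower range than those of Lgals3, from −0.84 to 0.75. With Col1a1, 522 genes were higher (4.52%) and 306 lower (2.65%). Without 2 days replicate 4 the lower count was 134, without 3 days replicate 2 it was 173, without 4 days replicate 2 it was 184 and without 4 days replicate 5 it was 200. Library size alone gave 2139 higher and 68 lower genes. Col3a1, a fibrillar collagen, led the fit (slope 1.07, edgeR adjusted p = 2.72e-08), followed by Col1a2 (0.99), Ccl6 (1.8), the proteoglycan Bgn (0.87) and Fstl1 (0.75). Of 16 other collagen and matrix genes 12 were higher, and so were 13 of 13 interferon-stimulated genes, 15 of 22 proliferation genes and 10 of 14 MAC1 genes. In the fit on Lgals3, 16 of 17 collagen and matrix genes were higher (median slope 0.24), Col3a1 with a slope of 0.30 over 76.3 to 356 CPM, and 7 of 12 markers of stromal progenitors were, including the receptor Pdgfra (0.23). Endothelial markers did not share this: 0 of 12 passed the edgeR test on Lgals3, with a median slope of −0.00569 that turned to 0.0542 with library size alone, where 2 were called higher. Pecam1, the endothelial adhesion molecule, had a slope of −0.04 (adjusted p = 0.561). Of 8 mural cell markers 0 passed as well, and 4 did with library size alone.

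The 36 pairs of anchors were compared directly by correlating their residuals over the 20 mice, with 100000 permutations of the mice within each duration and p-values adjusted over the 36 pairs. 8 pairs passed. Lgals3, Top2a and Col1a1 were positively related to one another. For Lgals3 and Top2a, Pearson's r was 0.901 (permutation p = 2e-05, adjusted 6e-04) and Spearman's rho 0.886 (p = 4e-05, adjusted 6e-04). Leaving out the 2 mice farthest from the median of Top2a gave r = 0.877. The paper had already placed Lgals3 and Top2a in a cluster that varied between mice of these same libraries. It reported the proliferation and immune genes of that cluster to be highly correlated. The anchors were chosen with earlier results of these data known, so the p-value of this pair is not independent evidence. For Lgals3 and Col1a1, r was 0.897 (permutation p = 4e-05, adjusted 6e-04) and rho 0.886 (p = 2e-05, adjusted 6e-04), and r was 0.858 without the 2 farthest mice. For Top2a and Col1a1, r was 0.846 (permutation p = 5e-05, adjusted 6e-04) and rho 0.827 (p = 5e-05, adjusted 6e-04), with r = 0.901 without the 2 farthest mice. All 3 went against Fasn. Top2a and Fasn had r = −0.762 (permutation p = 8e-04, adjusted 0.0072), rho = −0.731 (p = 0.00287, adjusted 0.0258) and r = −0.607 without the 2 farthest mice. Lgals3 and Fasn had r = −0.642 (permutation p = 0.01, adjusted 0.0451), rho = −0.636 (p = 0.015, adjusted 0.06) and r = −0.501 without the 2 farthest. Col1a1 and Fasn had r = −0.622 (permutation p = 0.0066, adjusted 0.0396), rho = −0.597 (p = 0.0108, adjusted 0.0554) and r = −0.531 without the 2 farthest, so that for both of these pairs rho did not pass. Ucp1 went against Top2a, with r = −0.637 (permutation p = 0.00945, adjusted 0.0451), rho = −0.696 (p = 0.00378, adjusted 0.0272) and r = −0.577 without the 2 farthest. It also went against Lgals3, with r = −0.664 (permutation p = 0.00624, adjusted 0.0396), rho = −0.674 (p = 0.00503, adjusted 0.0302) and r = −0.70 without the 2 farthest. Fasn and Ucp1 had r = 0.493 (adjusted permutation p = 0.186) and Lgals3 and Cd74 r = 0.497 (adjusted permutation p = 0.164). With library size alone 4 pairs passed. The number of pairs past the threshold was also 4 without 3 days replicate 1, 3 days replicate 5, 4 days replicate 2, 4 days replicate 3, 4 days replicate 4 or 4 days replicate 5, and 5 without 2 days replicate 1, 3 days replicate 2, 5 days replicate 1 or 5 days replicate 3.

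**Figure D3:**
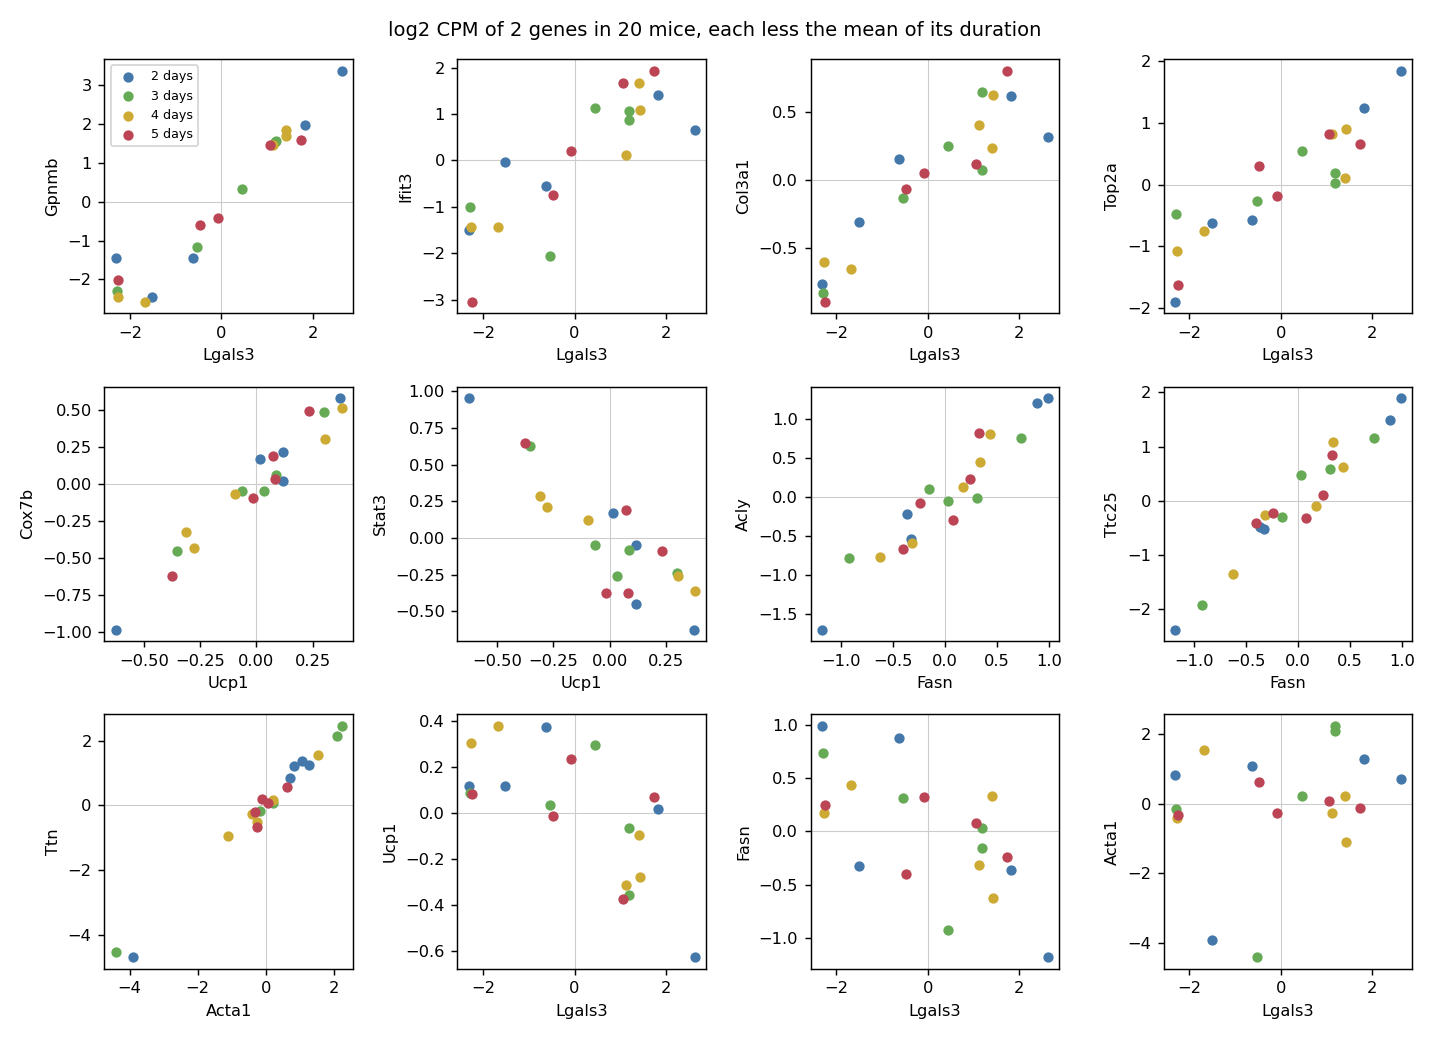
Residual log2 CPM of 12 pairs of genes in the 20 mice, 1 point per mouse, coloured by days at 6 °C. Lgals3 and Top2a are high in the same mice of all 4 durations (r = 0.901), and Fasn and Ucp1 are lower where Lgals3 is higher (r = −0.642 and −0.664).

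How far Lgals3, Top2a and Col1a1 could be told from one another was examined with both anchors in the model, a fit added after the first results were seen. With Lgals3 in the model, 0 genes passed on Top2a (702 had an unadjusted edgeR p below 0.05, of 11549) and 0 on Col1a1 (736 unadjusted), so the genes that went with either could not be separated from those that went with Lgals3. Conversely, with Top2a in the model 94 genes were still higher with Lgals3 and 7 lower. This higher count was 41 without 3 days replicate 1, 59 without 3 days replicate 3, 34 without 4 days replicate 1 and 60 without 5 days replicate 2. The 94 were led by Gpnmb (slope 1.23), Itih4 (1.40) and Ctss (0.78), and they held 6 of 9 chemokines, 5 of 13 MAC1 genes, 5 of 13 interferon-stimulated genes, 4 of 17 collagen genes and 0 of the proliferation genes. Top2a averaged 82.7 counts per library and Lgals3 532, so Top2a carried more counting error. These fits took both anchors as exact, so the 0 and the 94 cannot show which anchor the genes follow.

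**Figure D4:**
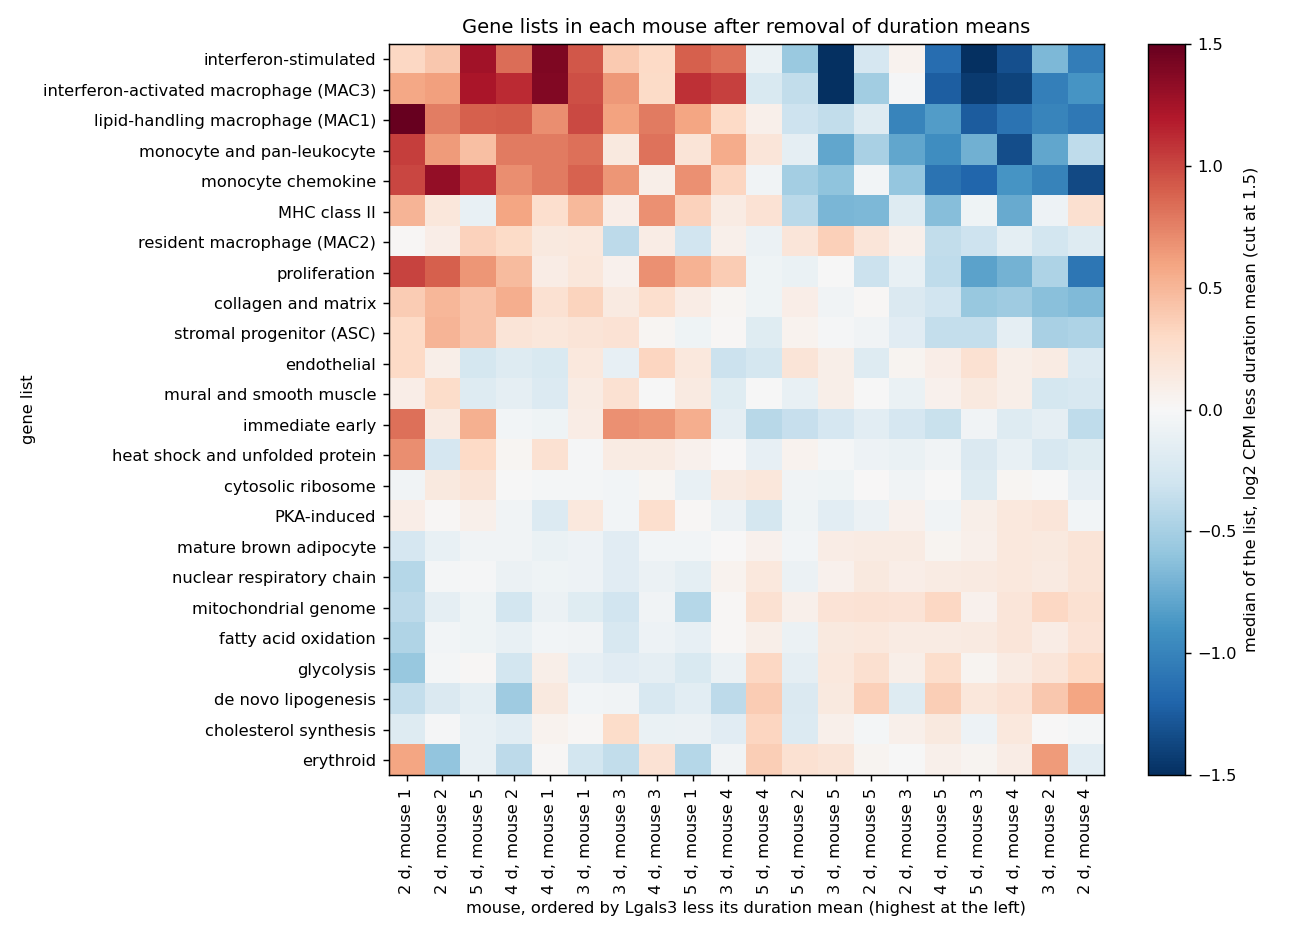
Median residual log2 CPM of each gene list (rows) in each of the 20 mice (columns, from the highest residual of Lgals3 at the left to the lowest at the right), on a colour scale that ends at −1.5 and 1.5. Interferon-stimulated, macrophage (MAC1, MAC3), leukocyte, proliferation and collagen lists go from high (red) to low (blue) with the order of the mice, respiratory chain and mitochondrial genome lists go the other way with paler colours, and the endothelial list shows no such order.

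Ucp1 itself varied far less than Lgals3, with an SD between mice of 0.297 against 1.75. Its SD was still above the upper quartile of 0.253 among genes that averaged 50 counts or more. The gene (chromosome 8 from 83290352 to 83298452) stood at 4066, 6344, 6802, 6799 and 8120 CPM at 2 days and at 5193, 5771, 4251, 6680 and 5566 CPM at 3 days. At 4 days it stood at 5850, 5154, 5034, 7704 and 8121 CPM, and at 5 days at 5708, 7326, 7828, 8696 and 7772 CPM. The mouse with the most Lgals3 at 2 days had the lowest Ucp1 of all 20. With Ucp1, 758 genes were higher (6.56%) and 615 lower (5.33%), 1239 of them with the same sign in each duration. Without 2 days replicate 1 the counts were 411 and 251, and library size alone gave 170 and 621. With the replicate number as a block, 47 genes were higher and 20 lower, and 101 of 120 named calls on Ucp1 were lost. The leading genes all belong to mitochondrial energy metabolism: the cytochrome oxidase subunit Cox7b (slope 1.46, SE 0.107, edgeR adjusted p = 7.72e-09), the isocitrate dehydrogenase subunit Idh3b (1.14), the pyruvate carrier Mpc2 (1.12) and the complex I subunits Ndufv2 (0.95) and Ndufb4 (1.06). Cox7b stood at 154, 342, 309, 353 and 455 CPM at 2 days and at 322, 465, 507, 697 and 564 CPM at 5 days, and at both durations its lowest mouse was the one with the least Ucp1. Of 18 nuclear respiratory chain genes 16 were higher with Ucp1 (median slope 0.49), as were 8 of 10 mitochondrial genome transcripts (0.76), 9 of 14 fatty acid oxidation genes (0.52), 8 of 13 glycolysis genes (0.55) and 7 of 15 lipogenesis genes (0.63). Examples were Uqcrc2 (0.87), Cox8b (1.03), the glycolytic Gapdh (2.06) and Ldha (1.01), and mt-Cytb (1.41). With library size alone the counts were 4, 4, 1, 2 and 2, with 1 mitochondrial genome transcript lower, so most of these calls rest on the TMM factors.

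Of 8 other genes tested that are induced by PKA, the kinase of adrenergic signalling, 1 was higher and 1 lower with Ucp1, and the median slope was −0.23. Ppargc1a, the coactivator of mitochondrial biogenesis, had a slope of −0.03 on Ucp1 (adjusted p = 0.964) and the deiodinase Dio2 one of −0.42 (adjusted p = 0.246). Nr4a1, an immediate early receptor that ran from 0.770 to 26.9 CPM, was lower with Ucp1 (−1.91, edgeR adjusted p = 0.0115), and 5 of 10 immediate early genes were. The fatty acid receptor Ffar4 was higher (1.19, adjusted p = 0.00113). Of 12 mature brown adipocyte markers, 3 were higher, such as the lipid droplet coat Plin1 (0.56), and 1 was lower, the lineage factor Ebf2 (−0.48, adjusted p = 0.0485), and the median slope of 0.24 turned to −0.0763 with library size alone. Pairs of PKA-induced genes had a median correlation of 0.0111 over the mice, against 0.804 for pairs of nuclear respiratory chain genes and 0.698 for pairs of fatty acid oxidation genes.

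The genes lower with Ucp1 were led by the syntenin gene Sdcbp (−0.99), the membrane linker Msn (−1.06), the cytokine-activated factor Stat3 (−1.31, SE 0.159, edgeR adjusted p = 7.44e-06), Lima1 (−1.09) and Itsn1 (−0.87). Stat3 stood at 192, 111, 95.5, 72.2 and 64.0 CPM at 2 days, in the reverse order of Ucp1 at both ends. Of the lists, 8 of 14 MAC1 genes, 5 of 12 leukocyte genes, 6 of 22 proliferation genes and 6 of 17 collagen genes were lower, with 1, 0 and 1 for the first 3 under library size alone. Interferon-stimulated genes were not among them, at 0 of 13 in edgeR and a median slope of −1.13. With Lgals3 in the model, 337 genes remained higher with Ucp1 and 238 lower, and 418 of the 1373 called on Ucp1 alone were kept. These counts were 206 and 133 without 3 days replicate 4, and the lower count was 143 without 2 days replicate 5 and 135 without 5 days replicate 1. Cox7b (1.65), Gapdh (2.61) and Mpc2 (1.15) led the 337, which held 6 of 18 respiratory chain, 4 of 14 fatty acid oxidation and 4 of 13 glycolysis genes. In the reverse fit, with Ucp1 in the model, 448 genes were higher and 235 lower with Lgals3, among them 13 of 13 interferon-stimulated, 8 of 8 MAC3, 9 of 13 MAC1, 13 of 17 collagen and 9 of 22 proliferation genes. The lower count was 139 without 2 days replicate 4 or without 3 days replicate 2, 105 without 3 days replicate 4 and 129 without 5 days replicate 5.

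In the fit on Lgals3 alone, 15 of 18 respiratory chain genes were lower (median slope −0.0828), as were 10 of 14 fatty acid oxidation genes (−0.0755), 7 of 10 mitochondrial genome transcripts (−0.119), 9 of 13 mature brown adipocyte markers (−0.0714), 8 of 13 glycolysis genes (−0.0939) and 8 of 15 lipogenesis genes (−0.119). Library size alone left 1, 1, 5, 2, 1 and 5 of these lower. The markers Adipoq (slope −0.13, SE 0.0274, edgeR adjusted p = 0.00131), Ucp1 (−0.11, adjusted p = 0.0119) and Fabp4 (−0.06, adjusted p = 0.0397), all used by adipocytes, were among the lower genes, and the Fabp4 slope on Lgals3 turned to 0.004982 with library size alone. The share of mitochondrial counts, a component of every library total, moved with these results. It had r = −0.72 with Lgals3 and −0.656 with Top2a, and 644 genes were higher and 640 lower with it. With the mitochondrial genes and Gm42418 left out of the libraries, 0 of 630 named calls was lost. TMM scaling was applied there too, and it rests on the bulk of the genes, so it changes little when a few are left out. That setting therefore says little about the share of mitochondrial counts. The share of Gm42418 had r = 0.328 with Lgals3. With that share in the model, the counts on Ucp1 were 331 higher and 178 lower. No gene passed on log2 library size in edgeR, where 412 had an unadjusted p below 0.05. Whether any of these shares sets the slopes was not tested.

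**Figure D5:**
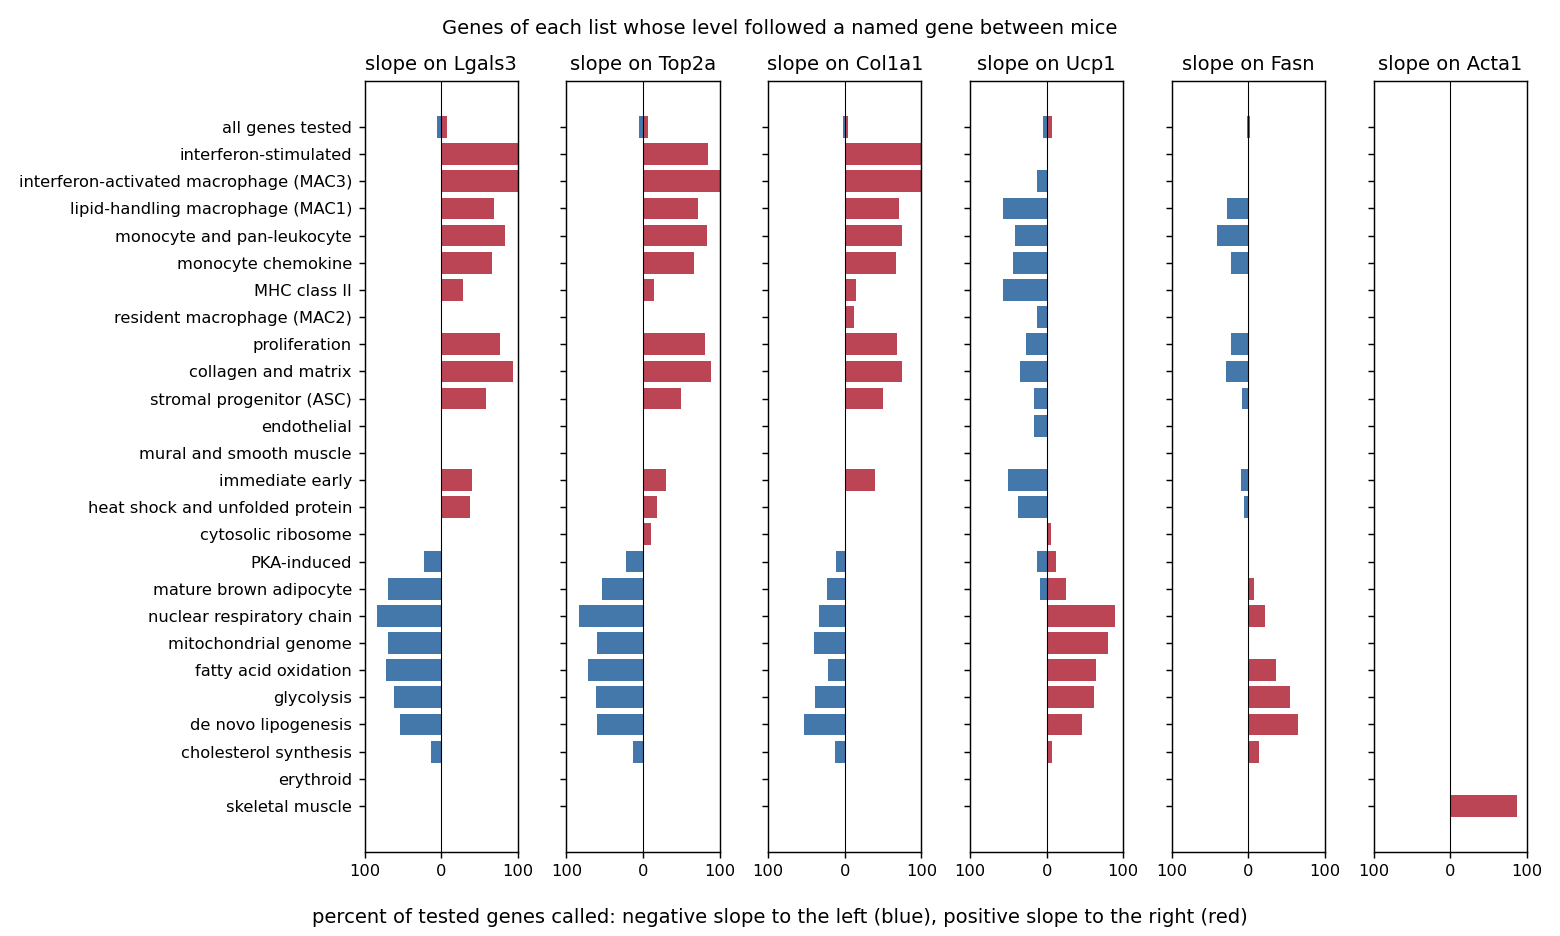
Percent of the tested genes of each list called higher (red, to the right) or lower (blue, to the left) with 6 anchors, 1 panel per anchor. The interferon-stimulated and MAC3 lists reach 100% higher with Lgals3, the respiratory chain list has 15 of 18 genes lower with Lgals3 and 16 of 18 higher with Ucp1, and muscle genes are called with Acta1 alone among these anchors.

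Fasn, the fatty acid synthase (chromosome 11 from 120805846 to 120824547), stood at 778, 1371, 1412, 3504 and 3250 CPM at 2 days, 1933, 3577, 2199, 1136 and 2669 CPM at 3 days, 4237, 2190, 2709, 3784 and 4542 CPM at 4 days, and 4550, 3265, 5107, 5399 and 3646 CPM at 5 days. At 2 days 3 mice had 1412 CPM or less and the other two at least 3250 CPM. With Fasn, 240 genes were higher (2.08%) and 190 lower (1.65%), 371 of the 430 with the same sign in each duration. Library size alone gave 59 and 134. These counts depended on single mice: they were 81 and 17 without 2 days replicate 1, 94 and 34 without 2 days replicate 4, and 471 and 391 without 3 days replicate 4. The lower count was 90 without 3 days replicate 2, 296 without 4 days replicate 1, 120 without 4 days replicate 2 and 123 without 4 days replicate 5. Acly, which makes the acetyl-CoA for fatty acid synthesis, had a slope of 1.24 (SE 0.0973, edgeR adjusted p = 7.52e-09) and Acaca, which makes malonyl-CoA, one of 0.79. They were joined by the glycogen phosphorylase Pygl (0.79). Of 14 other lipogenesis genes 9 were higher (median slope 0.41), including the elongase Elovl6 (0.53), Thrsp (0.80) and the citrate carrier Slc25a1 (0.67). Their regulator Srebf1 (0.19, adjusted p = 0.227) and the desaturase Scd1 (0.32, adjusted p = 0.22) did not pass. Of the glycolysis genes 7 of 13 were higher, such as the hexokinase Hk2 (0.57), and of the cholesterol synthesis genes 2 of 15. The lower genes were led by the complement component C3 (−0.42), Top2a (−1.24), the nucleolar Npm1 (−0.36), the carnitine palmitoyltransferase Cpt1a (−0.63) and Slc36a1 (−0.46).

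The gene most closely tied to Fasn was Ttc25, with a slope of 1.84 (SE 0.129, edgeR adjusted p = 1.94e-09). It is known as a gene of cilia, and stood at 2.39, 9.89, 9.64, 53.1 and 40.0 CPM at 2 days and at 73.0, 13.4, 28.8, 32.1 and 53.0 CPM at 4 days. At 2 days the same 3 mice were low in both genes, and at 4 days the same mouse was lowest. Its annotated gene on chromosome 11 runs from 100545607 to 100572568, and Acly, on the opposite strand, from 100476353 to 100528000, so the start sites face away from each other across 17606 bases. Whether reads of Ttc25 come from its own transcript cannot be read from gene counts. With Lgals3 in the model, 41 genes were still higher with Fasn and 0 lower (766 unadjusted, 339 of them lower), and 41 of the 430 were kept: Ttc25 (2.05), Acly (1.29), Pygl (0.73), Acaca (0.73) and Ntrk3 (1.37) among them, with 5 of 14 lipogenesis and 3 of 13 glycolysis genes.

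Skeletal muscle genes varied together, and no pair of Acta1 with another anchor passed. The median correlation of the muscle list with the scores of the first component was 0.393, so independence from the other genes is not shown. Acta1, the actin of skeletal muscle fibres (chromosome 8 from 123891769 to 123894751), stood at 57.1, 84.8, 1.93, 62.0 and 73.9 CPM at 2 days, 106, 21.8, 117, 28.6 and 0.770 CPM at 3 days, 82.7, 32.6, 59.5, 53.7 and 208 CPM at 4 days, and 47.4, 68.7, 35.9, 37.3 and 41.2 CPM at 5 days. In 2 days replicate 3 and 3 days replicate 5 it was nearly missing. Gm20388 overlaps Acta1 on the opposite strand, and how the counting used strand is not given in the sources used here. With Acta1, 58 genes were higher (0.502%) and 1 was lower, the carbonic anhydrase Car14 (−0.16; 0.00866%). Ttn, the giant spring of the sarcomere, had a slope of 1.10 (SE 0.0418, edgeR adjusted p = 2.42e-15), and Ckm (0.85), the calcium pump Atp2a1 (1.04), the fast myosin Myh4 (1.03) and the troponin Tnnc2 (0.94) followed. Of 15 other muscle genes 13 were higher (median slope 0.94), while 0 genes of any other list were. Of the anchors, Lgals3 had r = 0.245 with Acta1 (adjusted permutation p = 0.471), and 0 of 16 muscle genes passed the edgeR test on Lgals3. With Acta1 in the model, 772 genes were higher and 595 lower with Lgals3, 1305 of the 1508 being kept, and 761 and 614 with Ucp1. Without 2 days replicate 1 these were 336 lower for Lgals3 and 414 and 257 for Ucp1, and without 4 days replicate 5 the lower count for Ucp1 was 372. Library size alone gave 62 higher and 1 lower gene on Acta1 itself.

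The other 3 anchors had few companions. With Cd74, the invariant chain of MHC class II, 12 genes were higher (0.104%) and 1 lower (0.00866%). The higher genes included the class II chains H2-Ab1 (slope 1.08, SE 0.172, edgeR adjusted p = 0.0147), H2-Aa (0.92) and H2-DMb1, the transcription factor Irf8 (1.73) of dendritic cells and macrophages, and the oxidase subunit Cybb (1.63). The lower gene was the mitochondrial deacetylase Sirt3 (−0.56). With Lgals3 in the model only Irf8 passed (1.05, adjusted p = 0.0338), and Irf8 ran from 4.97 to 35.5 CPM. This count of 1 higher gene became 0 without 2 days replicate 4, 3 days replicate 1, 2, 3 or 5, 4 days replicate 2, 3, 4 or 5, or 5 days replicate 1, 2 or 3. It became 2 without 2 days replicate 2, 3 days replicate 4, 4 days replicate 1 or 5 days replicate 5, and 6 without 2 days replicate 3. The annotated gene Gm20388 overlaps Irf8 on the same strand, so their reads are uncertain. The total on Cd74 alone was 116 without 2 days replicate 4, 70 without 4 days replicate 1 and 23 without 3 days replicate 2. It was 8 without 2 days replicate 3, 6 without 5 days replicate 1, 5 without 4 days replicate 2, 4 without 3 days replicate 1, 3 without 4 days replicate 3 and 0 without 4 days replicate 4 or 4 days replicate 5. DESeq2 called 97, and library size alone 1060, nearly all of them higher. With Dbp, a clock output factor, 0 genes passed in edgeR (0%), 828 had an unadjusted p below 0.05 and DESeq2 called 1. With Hbb-bs, a beta globin, 1 gene was higher (0.00866%) and 0 were lower (0%), and 1130 had an unadjusted p below 0.05. The gene was the neighbouring copy Hbb-bt (slope 1.01, SE 0.154, adjusted p = 0.0115), 12537 bases away, whose near-identical sequence makes the split of reads between the copies uncertain. DESeq2 called 11. The alpha globin Hba-a1 had a slope of 1.01 that did not pass (adjusted p = 0.389). The total on Hbb-bs was 7 without 2 days replicate 1, 2 without 3 days replicate 5 and 0 without 3 days replicate 2, 3 days replicate 3, 4 days replicate 2 or 5 days replicate 1.

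Covarying groups were also formed without anchors, by average-linkage clustering of the residuals of the 1000 most variable genes, which gave 16 modules of at least 10 genes. They are descriptions of these mice with no test. The largest held 181 genes, had a correlation of 0.955 with Lgals3 and contained 11 of 11 interferon-stimulated genes clustered, 5 of 5 MAC1 genes, 4 of 4 MHC class II genes and 9 of 12 collagen genes. Its most central members were Ly6e, Ifitm3, Ctss, Lgals3, the macrophage receptor Sirpa, Gbp2 and the partner of that receptor, Cd47. The next, with 99 genes, held Ucp1, Idh3b, Cox7b, mt-Nd1 and Mpc2 at its centre. A module of 57 genes around Stat3, Sdcbp, Msn and Tubb5 was its mirror image, with r = −0.957 between the 2 means. A module of 85 genes held the triglyceride enzymes Pnpla2 and Dgat2 and had r = −0.746 with Lgals3. A module of 68 genes held Fasn, Acly, Acaca and Gpd1, with 10 of 11 lipogenesis genes. A module of 34 genes with Top2a, the cyclin Ccnd2 and the complement component C3 had r = 0.892 with Top2a, and a module of 19 muscle genes had r = 0.996 with Acta1. Over all 66695475 pairs of the 11550 genes, the median correlation was −0.00124, and 0.427% of pairs were above 0.7 and 0.327% below −0.7. In 12 of the 16 modules 2 days replicate 1 was the mouse with the highest or the lowest mean.

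Smaller modules named other features. One of 20 genes held endothelial genes, the receptor Cd93, the sialomucin Podxl and Rasgrp3, beside the chemokine Cxcl12 and the cyclin Ccnd1. Its mean was lowest in 2 days replicate 4 and highest in 2 days replicate 1. One of 15 genes held fast-responding genes, the insulin receptor substrate Irs2 (14.1 to 61.1 CPM), Nfkbia, the clock gene Per1, Nr4a1, the phosphodiesterase Pde4b and the phosphatase Dusp1. It also held Gm42614 and Gm42615, which lie inside Ppargc1a on the same strand, so their reads cannot be told apart from those of that gene. One of 10 genes joined the alpha globins Hba-a1 and Hba-a2 with the heat shock genes Hsph1 and Hsp90aa1, and its highest mean, 1.03, was that of 2 days replicate 1, where Hba-a1 stood at 1158 CPM against 253 to 608 CPM in the other 19 mice. The beta globin Hbb-bs did not stand out in that mouse, at 1392 CPM within a range of 1017 to 1544 CPM at 2 days. One of 10 genes held stromal secreted proteins, Serping1, the metalloproteinase Mmp2, Timp4 and Dpt, and had r = 0.596 with Lgals3.

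Whether slopes on Top2a differed between the 4 durations was tested with an interaction term, which left 12 residual degrees of freedom. In edgeR 0 genes passed (0%), 781 had an unadjusted p below 0.05 and the DESeq2 likelihood ratio test called 23. The smallest adjusted p of the edgeR test was 0.164, for Hk2, Zbtb16, Il11ra1 and Swi5. The count was 2 without 4 days replicate 1, and 1 without 4 days replicate 4 or without 5 days replicate 4.

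The spread between mice of the same group was then compared between the 20 libraries and the 15 of room temperature, 6 hours and 1 day, with limma on the absolute deviations from the group mean of 12225 genes. Over all genes the median deviation was 0.27 after 2 to 5 days and 0.253 in the others. Of the 12225 genes, 13 had a larger spread after 2 to 5 days (0.106%) and 6 a smaller one (0.0491%), and 1626 had an unadjusted p below 0.05. The widest difference belonged to Gpnmb, with a mean deviation of 1.88 against 0.517 (difference 1.37, SE 0.272, limma adjusted p = 0.00476). The guanylate-binding protein gene Gbp3 (0.967 against 0.279) and the class II chain H2-Aa (0.401 against 0.0993) also had larger spreads, as did Ino80e and the enoyl-CoA isomerase Eci1. The levels differed as well: mean log2 CPM was higher after 2 to 5 days by 2.22 for Gpnmb and by 2.02 for Gbp3, while for H2-Aa the difference was −0.0365. Whether lower counts in the other 15 libraries narrowed the spread of Gpnmb and Gbp3 there was not tested. Smaller spreads were those of Apba3 (0.123 against 0.45), Ate1 (0.077 against 0.295), Mlx, Gnl2 and Picalm. Among the lists, MAC1 genes had a median of 1.07 against 0.375 with 2 of 14 past the threshold, and interferon-stimulated genes 0.956 against 0.455 with 0 of 13, of which 11 had an unadjusted p below 0.05. Muscle genes had 1.16 against 1.5. The result was not firm: with deviations from the median 0 genes passed in limma and 465 had an unadjusted p below 0.05, and library size alone gave 38 larger. Leaving out 1 mouse gave 7 larger genes without 4 days replicate 5 and 8 without 4 days replicate 4, and between 20 and 36 without 2 days replicate 3, 4 or 5, 3 days replicate 1, 3, 4 or 5, 4 days replicate 1 or 3, or 5 days replicate 2 or 4. The smaller count was 11 without 2 days replicate 5, 2 without 4 days replicate 4 and 3 without 4 days replicate 5.

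The same slopes were fitted in the other 15 libraries, also as a step added after the first results were seen. Acta1 had companions there too, 74 higher and 3 lower genes, 54 of them among the 59 called after 2 to 5 days. With Fasn 41 genes were higher and 2 lower, 35 of them shared with the 430. With Lgals3 4 genes were higher, all 4 shared, and the SD of Lgals3 in those libraries was 0.821 against 1.76. Top2a, whose SD was 0.495 against 1.03, had 0 in edgeR (407 unadjusted), Col1a1 0 (944 unadjusted) and Ucp1 0 (623 unadjusted). Of the genes called on Lgals3 after 2 to 5 days, 79.7% had a slope of the same sign in the other 15 libraries, against 60.5% of all genes. The shares were 65.5% against 54.5% for Ucp1, 65.7% against 54.5% for Top2a and 41.9% against 46.4% for Col1a1. Whether the slopes differ between the 2 sets of libraries was not tested.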

How the data were processed

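RNA of iBAT was read from the 3′ end of transcripts (QuantSeq 3′ FWD), so a count does not grow with transcript length. Per the study's methods, STAR 2.6.1d was the aligner and GRCm38 the genome. The authors deposited whole-number counts per gene, made with HTSeq 0.11.2 and not normalized. The strand setting of the counting is not given in the sources used here. 267 of the 55421 identifiers lacked a symbol. Each library was 1 mouse, so the replicates are animals.

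Genes with at least 10 counts in at least 5 of the 20 libraries were scaled by TMM and put on the log2 CPM scale with 2 as the prior count. Depth, 3913519 to 6031117 counts per library, limits precision through counting error. The chi-square test asks whether variation exceeds that error, and counting variance was subtracted from the between-mouse SD only. The residuals behind the anchors, correlations, components and modules still hold it. Slopes were tested with edgeR 4.0.16 (quasi-likelihood, 15 residual degrees of freedom, Benjamini-Hochberg adjusted p below 0.05) and spreads with limma 3.58.1 in R 4.3.3. DESeq2 1.42.0 was an alternative. Correlations and figures used R, pandas 2.3.3, numpy 2.4.6 and matplotlib 3.10.9 in Python 3.11.15. The scripts were tested on simulated data. Modules came from average linkage of 1 minus the correlation among the 1000 most variable genes with a mean of at least 50 counts, at a height of 0.5.

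Named genes were the 15 with the largest between-mouse SD among genes that averaged 50 counts or more, the 8 at each end of the first 3 components, the 5 in each direction with the smallest p on each anchor (with the same sign in all 4 durations), the 8 most central in each module, the 5 with the largest difference of spread in each direction, and the 35 gene lists. Some genes that this rule names are not reported here. The members, lists and anchors were chosen with earlier results of these data known. Other scalings, filters, prior counts, covariates, the replicate number as a block and fits without each mouse were the alternatives. Models with 2 anchors and fits in the other 15 libraries were added after seeing the data. Coordinates are those of GENCODE M21 (GRCm38), and the promoters are from RefSeq.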

Additional observations from a re-analysis of the deposited data

Results flagged for a closer look

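In groups of 5 mice, the mouse farthest from the others was set against Dixon's critical gap of 0.71 of the whole range. The groups were those of the anchors, the 15 most variable genes and 3 components. 12 of 100 groups exceeded it. Chance gives about 1 in 20 for genes not picked by spread, a rate that does not apply here, since all genes found were among the most variable in these mice. Of these, 10 were skeletal muscle genes in 2 days replicate 3, whose residual log2 CPM was −3.91 for Acta1, −4.38 for Tnnt3, −4.69 for Ttn, −4.58 for Myh4 and −3.75 for Atp2a1. It was −3.97 for Tnni2, −3.27 for Tnnc2, −3.17 for Mylpf, −3.66 for Xirp2 and −3.44 for Ckm. These genes vary together, so the 10 groups are not independent. Tnnt3 stood at −5.25 in 3 days replicate 5, and Tnni2 at −0.561 in 5 days replicate 4, a duration in which muscle genes varied little. The source of the muscle transcripts was not tested.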

How the results depend on the processing

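With library size alone the higher and lower genes were 2557 and 103 on Top2a, 2666 and 97 on Lgals3, 2139 and 68 on Col1a1, 59 and 134 on Fasn and 170 and 621 on Ucp1, with 1060 in all on Cd74. With 2 anchors in the model they were 182 higher on Ucp1 given Lgals3, 2 lower on Fasn given Lgals3, 5 and 1 on Cd74 given Lgals3, 2 lower on Lgals3 given Top2a, 1986 and 71 on Lgals3 given Ucp1, 2318 and 84 on Lgals3 given Acta1 and 169 higher on Ucp1 given Acta1. Library size alone also gave 38 genes with a larger spread, 4 anchor pairs, a largest module of 320 genes, components of 29.6% and 8.336% and a Fabp4 slope on Lgals3 of 0.004982. A replicate block, with duration and replicate number in the model, gave 350 and 185 genes on Top2a, 504 and 209 on Lgals3, 0 on Cd74, 106 lower on Col1a1, 99 and 49 on Fasn, 47 and 20 on Ucp1, and components of 22.16% and 11.52%. No label says what a number stands for, and the numbers were not treated as pairs: residuals of the 30 same-numbered pairs correlated between −0.263 and 0.263, 10 of them over 0.1, and 4 of 20 mice correlated best with their own number. The mice numbered 1 nevertheless scored 35.2, 18.7, 16.4 and 17.5 on the first component, and had the highest share of Gm42418 at 3 of the 4 durations. Whether they share a batch was not tested. Without the 2 mice farthest in the anchor the counts were 368 and 114 on Top2a, 2 on Cd74, 309 and 93 on Col1a1, 75 and 28 on Fasn, 212 and 105 on Ucp1, 34 on Acta1 and 0 on Hbb-bs. No filter on counts gave 397 on Cd74, 487 lower on Fasn, 185 on Dbp, 167 on Acta1 and 273 on Hbb-bs, and DESeq2 gave 97 on Cd74, 1 on Dbp and 11 on Hbb-bs. The share of Gm42418 as a covariate gave 4 on Cd74 and 331 and 178 on Ucp1, and log2 library size 0 on Hbb-bs. A prior count of 0.5 put the second component at 9.574%, unit variance both at 17.22% and 10.14%, and a mean of at least 50 counts at 29.07% and 12.49%. Absolute deviations from the median gave 0 genes of larger and 0 of smaller spread, and clustering 500 or 2000 genes gave 8 or 29 modules instead of 16. Leaving out each mouse in turn gave 428 to 706 higher and 188 to 624 lower genes on Top2a, 629 to 833 and 383 to 675 on Lgals3, 0 to 116 on Cd74, 404 to 539 and 134 to 341 on Col1a1, 81 to 471 and 17 to 391 on Fasn, 411 to 815 and 251 to 694 on Ucp1, 47 to 64 on Acta1 and 0 to 7 on Hbb-bs. It gave 206 to 355 and 133 to 265 on Ucp1 given Lgals3, 28 to 47 and 0 to 2 on Fasn given Lgals3, 0 to 0 and 0 to 1 on Top2a given Lgals3, 0 to 3 and 0 to 0 on Col1a1 given Lgals3, 0 to 6 and 0 to 2 on Cd74 given Lgals3, 34 to 120 and 0 to 15 on Lgals3 given Top2a, 331 to 448 and 105 to 243 on Lgals3 given Ucp1, 591 to 814 and 336 to 637 on Lgals3 given Acta1 and 414 to 802 and 257 to 691 on Ucp1 given Acta1. The components ran from 21.52% to 24.1% and from 8.993% to 9.901%, genes of larger and smaller spread from 7 to 36 and from 2 to 11, interactions from 0 to 2 and anchor pairs from 4 to 9. Of 655 named calls, 219 were lost and 1 reversed with library size alone, 281 were lost with the block, 257 without the 2 farthest mice, 95 with the share of Gm42418 and 13 with DESeq2. The cause of these changes was not tested. Fits that left mice out also had fewer mice, and the effect of that number was not tested apart from the mice removed. Each slope pools the 4 durations, and genes near 1 count per library could not be compared at this depth.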

Other observations

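Clock genes and glucocorticoid-responsive genes also varied between the mice, and only some of them went with the anchors. Of the 11 genes of the evening arm of the circadian clock, 2 were higher with Lgals3, Nr1d2 (slope 0.17, edgeR adjusted p = 0.00269) and Bhlhe41 (0.23, adjusted p = 0.0102), and 3 were lower with Ucp1, the same 2 and Per1. Library size alone called 5 higher with Lgals3 and 1 lower with Ucp1. Of the 5 genes of the morning arm 0 passed on Lgals3 or Ucp1 in edgeR. Dbp itself ran from 3.678 to 27.49 CPM, and pairs of evening genes had a median correlation of 0.243 over the 20 mice. Glucocorticoid-responsive genes had no common direction, with a median correlation of −0.0394 between pairs. With Lgals3, Pdk4, the kinase that switches off pyruvate oxidation, was higher (0.13, adjusted p = 0.034) and Zbtb16 lower (−0.34, adjusted p = 0.0207).

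Some adipocyte and immune genes also stood apart from their lists. Of 6 white-like adipocyte genes 1 passed on Lgals3, the secreted protease Cfd (adipsin), which was lower (−0.19, edgeR adjusted p = 0.00235) and ran from 204 to 1030 CPM. With library size alone 3 of that list were higher and 1 lower. Of 7 dendritic cell genes 4 were higher with Lgals3, including the migration receptor Ccr7 (0.78, adjusted p = 0.000643), which was at 0 to 3.218 CPM, and 2 of 7 MHC class II genes were. Lymphocyte markers summed to 4.06 to 39.1 CPM, and 1 of 12 had enough counts to be tested. Schwann cell markers summed to 16.4 to 34.6 CPM, and 0 of 4 tested passed on Lgals3, Fasn or Ucp1 in edgeR.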
